A study of Mus musculus with 24 samples.

Results

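The TRP channels described here are 9 genes of sensory neurons, *Trpv1*, *Trpv2*, *Trpv4*, *Trpa1*, *Trpm8*, *Trpm3*, *Trpc1*, *Trpc5* and *Trpc6*, chosen by name in the gene name column of the array. Of these 9 genes, 8 had a probe, and no probe carried the name *Trpv1*. The 8 genes were measured by 13 probes, out of 41174 probes for 27398 gene names on the array. *Trpm3* had 4 probes, *Trpc1* had 3 and each of the others had 1. A gene with several probes is described by the brightest, and the others are given beside it.

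RNA came from L4 and L5 dorsal root ganglia (DRGs) of adult male mice of strain C57BL/6J, either *Nfil3* KO mice or their WT littermates. The KO is a full knockout made by crossing mice with a floxed *Nfil3* allele to a CMV-Cre line. The sciatic nerve was cut on the left side and its ends were joined again with sutures, and DRGs were taken at day 2 and day 5 post-lesion. DRGs of the non-injured side were the control. This gave 6 groups, WT control, WT day 2, WT day 5, KO control, KO day 2 and KO day 5, with 4 samples each. The sources used here do not give the day or the animal from which each control came, nor which samples share an animal, and p-values measure the spread between these samples.

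TRP channels are cation channels of the plasma membrane that open in response to temperature, chemical irritants, stretch or lipid signals. In DRG neurons they turn such stimuli into a depolarization. TRPV1 responds to heat and capsaicin, TRPA1 to irritants such as mustard oil, TRPM8 to cool temperatures and menthol, and TRPM3 to heat and pregnenolone sulfate. The TRPC channels open downstream of receptors that couple to phospholipase C.

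Some probe sequences are shown here as the array annotation gives them, 5′ to 3′, with positions in build mm9. They are those for *Trpm8* and *Trpc6*, which fell most strongly along with *Trpa1*, and for *Trpv2*, which rose at day 2. A *Trpc1* probe is added that, like the other dimmer *Trpc1* probe, did not follow the brightest. No letters are in capitals because no part of a probe was singled out.
*Trpm8* probe A_51_P156334, chr1:90277553-90281272, plus strand: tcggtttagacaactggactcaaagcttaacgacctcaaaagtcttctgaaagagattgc
*Trpc6* probe A_51_P411452, chr9:8679469-8679528, plus strand: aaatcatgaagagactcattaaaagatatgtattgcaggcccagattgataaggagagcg
*Trpv2* probe A_51_P302749, chr11:62413620-62413679, plus strand: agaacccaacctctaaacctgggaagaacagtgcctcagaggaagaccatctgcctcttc
*Trpc1* probe A_51_P196019, chr9:95610610-95610669, minus strand: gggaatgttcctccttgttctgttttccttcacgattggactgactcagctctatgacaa
Each probe is 60 bases long. The *Trpm8* probe covers 3720 bases of the genome, so its 60 bases are joined across at least 1 intron. The other 3 lie in an unbroken stretch. The array annotation does not say which exon a probe lies in.

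Values are log2 intensities after background correction and quantile normalization, and a difference of 1 on this scale is a doubling. Levels are compared between samples for the same probe. The exceptions are the choice of the brightest probe and the summed intensities of marker lists, in which bright probes weigh most. The share of probes well above background was 54.6% to 72.4% over the samples, with 0 saturated spots. The sensory neuron markers were well above background in all 24 samples for 14 of 14 genes. The same held for 10 of 11 satellite glia and Schwann cell markers and 11 of 11 macrophage markers, so the label "DRG neurons" stands for whole ganglia. *Nfil3* ranged from 8.44 to 9.01 in WT controls and from 2.94 to 7.59 in KO controls, where 1 of 4 samples was well above background. That sample was KO control replicate 4, for which another label field gives day 5. The counts of channels that differed between groups are given with and without KO control replicate 4 where they include it. Most values of single channels are given with it only. These include the KO minus WT lesion changes and the differences by slide or array partner. In KO lesion samples *Nfil3* ranged from 3.03 to 6.23 at day 2 and from 2.82 to 5.81 at day 5. At each of these days 2 of 4 KO samples were well above background. WT samples ranged from 10.34 to 10.76 at day 2 and from 10.64 to 11.09 at day 5.

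Each array carried 2 samples, 1 in each dye. *Atf3*, a marker of axon injury, ranged from 7.25 to 7.69 in the 4 controls whose array partner was also a control and from 9.04 to 9.98 in the 4 controls that shared an array with a lesion sample. In lesion samples *Atf3* was between 12.94 and 14.1. Each array with 2 samples of the same time point held a WT and a KO sample. *Nfil3* in KO lesion samples read 5.3 and 6.23 at day 2 and 5.81 and 5.66 at day 5 with a WT partner. With a KO partner it read 4.14 and 3.03, and 3.4 and 2.82. KO controls read 3.8 and 4.37 with a WT partner and 2.94 and 7.59 with a KO partner. The cause was not tested. Where TRP channel values split by a partner of the same or another time point, they are given by array partner.

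**Figure D1:**
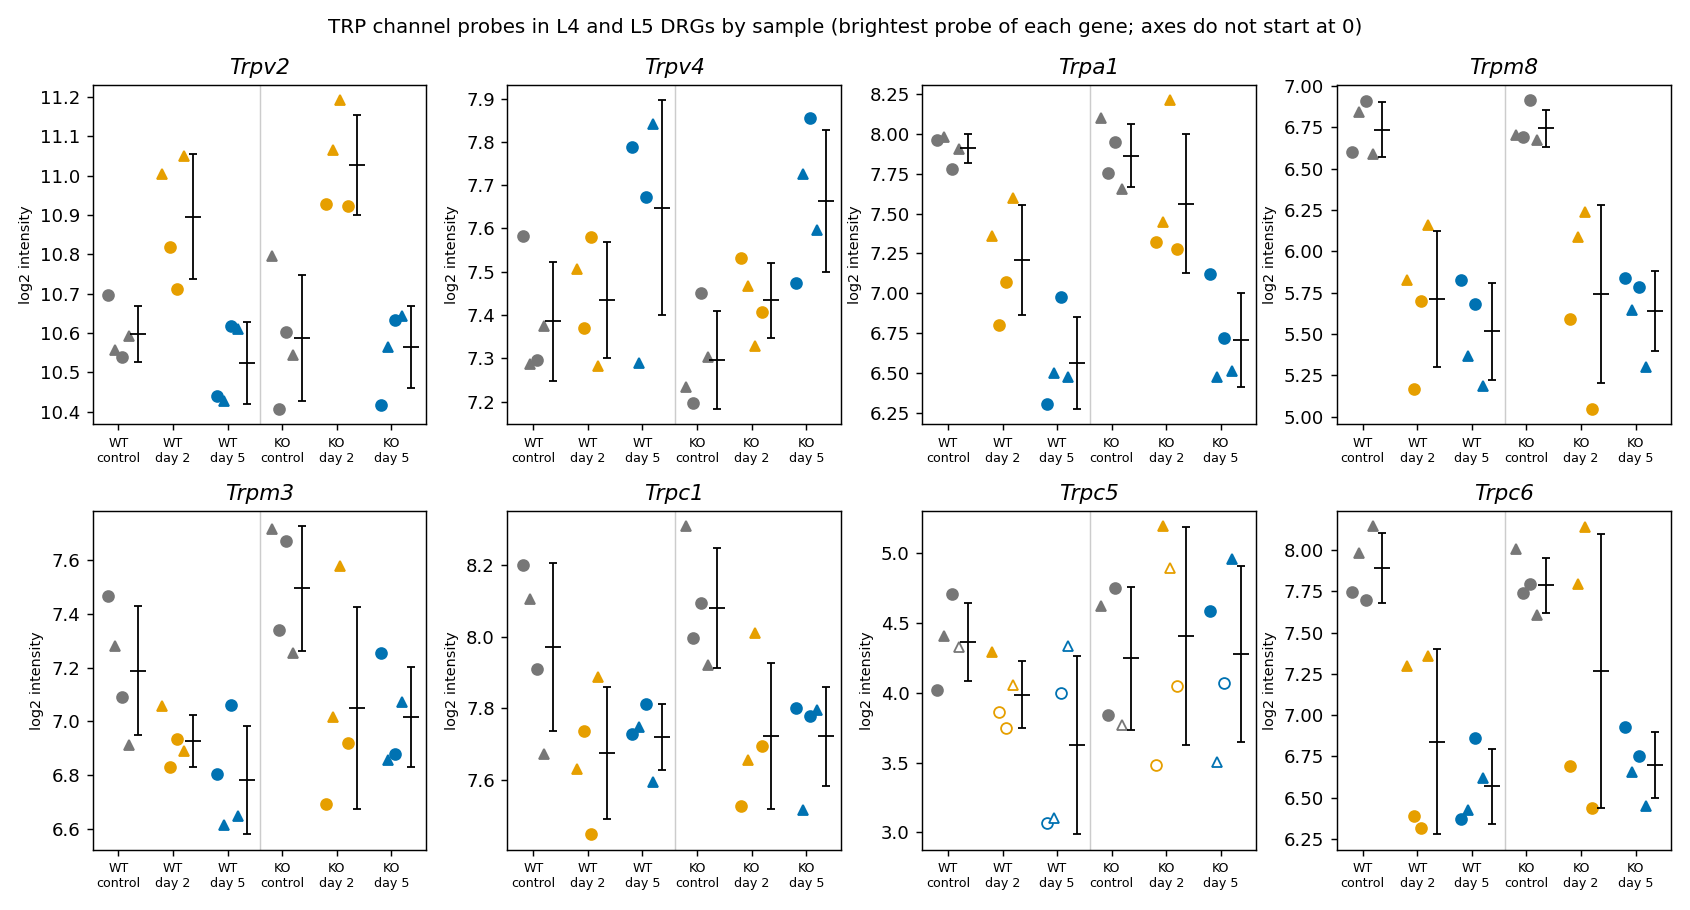
Log2 intensity of the brightest probe of each TRP channel gene in the 24 samples (grey control, orange day 2, blue day 5; WT left of the line, KO right; circles share an array with a sample of the same time point, triangles with one of another time point; open symbols are not well above background). Black bars give the group mean and SD of 4 samples; the *Trpm8* lesion samples lie below all controls at both days, and those of *Trpa1* and *Trpc6* at day 5.

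At day 2, averaged over both genotypes, 6 of the 8 channels passed the threshold in limma (Benjamini-Hochberg adjusted p under 0.05 over all probes). *Trpv2* was higher, and *Trpa1*, *Trpm8*, *Trpm3*, *Trpc1* and *Trpc6* were lower. Of all gene names 22.1% passed in this comparison, 9.48% higher and 12.7% lower. At day 5 again 6 of 8 channels passed, with *Trpv4* higher and the same 5 channels lower, against 23.2% of all gene names, 10.2% higher and 13% lower. The median difference of the 8 channels was -0.34 at day 2 and -0.40 at day 5, where the median over all gene names was -0.02 and -0.03. In whole ganglia, fewer cells that carry a channel and less RNA per cell cannot be told apart. Without KO control replicate 4 the counts were also 6 and 6, and no channel's difference at either day moved by more than 0.08 on the log2 scale.

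*Trpm8*, the cold and menthol channel, was lower at both days. In WT mice its probe read 6.6, 6.84, 6.91 and 6.59 in controls, 5.83, 5.17, 5.70 and 6.16 at day 2, and 5.83, 5.37, 5.68 and 5.19 at day 5. In KO mice it read 6.70, 6.69, 6.91 and 6.67 in controls, 5.59, 6.09, 6.24 and 5.05 at day 2, and 5.84, 5.64, 5.79 and 5.30 at day 5. Every lesion sample was below every control, at both days and in both genotypes. All day 2 samples lay on one side of all controls for 6.54% of gene names, and all day 5 samples for 11.7%. *Trpm8* fell by 1.01 at day 2, to 49.6% of control (standard error 0.16, limma adjusted p = 0.0001033), and by 1.16 at day 5, to 44.7% of control (standard error 0.16, adjusted p = 1.703e-05). Day 5 and day 2 differed by -0.15 (95% CI -0.48 to 0.19, adjusted p = 0.7367), so the order of these neighbours is not settled. At day 2 the 4 samples whose array partner was of the same day read 5.05 to 5.70, and the 4 others read 5.83 to 6.24. The day 2 difference was -1.40 among samples with a partner of the same time point and -0.62 among the others. At day 5 the values also split by partner, in the opposite order, with 5.68 to 5.84 where the partner was of the same day and 5.19 to 5.64 in the others, and the differences were -1.0 and -1.33. *Trpm8* was lower on each of the 3 slides at both days. The difference was smaller without background subtraction or with normexp. Over the alternatives in processing, model or set of samples it ranged from -1.40 to -0.53 at day 2 and from -1.22 to -0.60 at day 5. The -1.40 is that of the samples with a partner of the same time point.

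*Trpa1*, the irritant channel of nociceptors, was lower at day 2 and lower again at day 5 in the fit of all samples. Its probe, A_51_P144024 (chr1:14863406-14863465, minus strand), read 7.96, 7.98, 7.78 and 7.91 in WT controls, 7.36, 6.80, 7.07 and 7.60 in WT at day 2, and 6.30, 6.50, 6.98 and 6.47 in WT at day 5. In KO mice it read 8.10, 7.75, 7.95 and 7.66 in controls, 7.32, 7.45, 8.21 and 7.28 at day 2, and 7.12, 6.47, 6.72 and 6.51 at day 5. All 8 day 5 samples lay below all controls, while KO day 2 replicate 3, at 8.21, was above every control. *Trpa1* fell by 0.50 at day 2 (limma adjusted p = 0.01755, standard error 0.15), and without KO day 2 replicate 3 by 0.61 (adjusted p = 0.00148). At day 5 it fell by 1.25, to 42.0% of control (standard error 0.15, adjusted p = 2.173e-06). Day 5 was also lower than day 2, by -0.75 (95% CI -1.06 to -0.45, adjusted p = 0.005109). In the fit of all samples each step in the order control, day 2, day 5 thus passed the threshold. Of all gene names 3.28% passed between day 5 and day 2. The day 2 values split by array partner without overlap, with 6.80 to 7.32 in the 4 samples whose partner was of the same day and 7.36 to 8.21 in the 4 others. The day 2 difference was -0.74 within the former kind of array and -0.26 within the latter, and at day 5 it was -1.08 and -1.42. Mean values at day 2 and day 5 were 7.12 and 6.78 in the former kind and 7.65 and 6.49 in the latter. With only the 12 samples of the former kind, chosen after seeing the data, *Trpa1* did not pass between day 5 and day 2. The day 5 difference was between -1.33 and -1.23 within the 3 slides. At day 2 it was +0.21 within the slide that holds KO day 2 replicate 3 as its only day 2 sample, and negative within the other 2.

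*Trpc6*, a channel opened by diacylglycerol, was also lower at both days. It read 7.74, 7.98, 7.70 and 8.15 in WT controls, 7.30, 6.39, 6.32 and 7.36 in WT at day 2, and 6.37, 6.42, 6.86 and 6.62 in WT at day 5. The KO values were 8.0, 7.74, 7.79 and 7.61 in controls, 6.69, 7.79, 8.14 and 6.44 at day 2, and 6.93, 6.66, 6.75 and 6.45 at day 5. All 8 day 5 samples were below all controls, and at day 2 the replicates 2 and 3 of KO lay among the controls. *Trpc6* fell by 0.79 at day 2, to 58.0% of control (standard error 0.21, limma adjusted p = 0.01126), and by 1.21 at day 5, to 43.3% of control (standard error 0.21, adjusted p = 0.0002555). The day 2 values split by array partner without overlap, with 6.32 to 6.69 in the 4 samples that shared an array with another day 2 sample and 7.30 to 8.14 in the 4 that did not. The day 2 difference was -1.28 within the former kind of array and -0.29 within the latter. At day 5 it was -1.02 and -1.40. Day 5 and day 2 differed by -0.42 (95% CI -0.87 to 0.02, adjusted p = 0.37), and the spread at day 2 was wide, with an SD of 0.83 among the KO samples. On the slide that holds KO day 2 replicate 3, *Trpc6* at day 2 was +0.29 against the controls there.

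**Figure D2:**
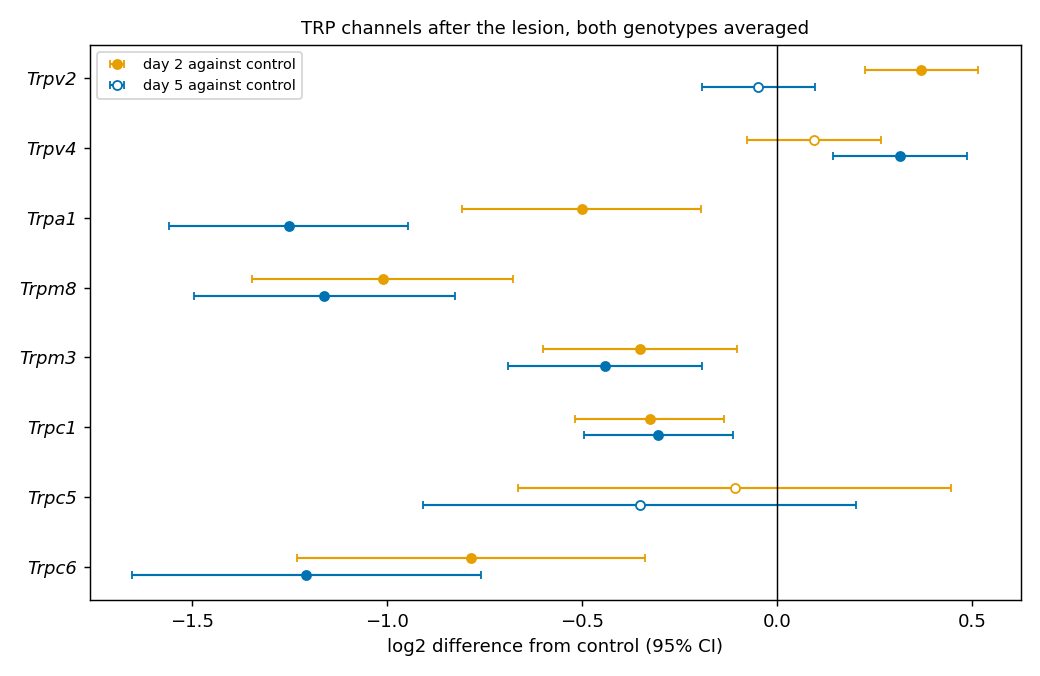
Log2 difference from control at day 2 (orange) and day 5 (blue) for the brightest probe of each TRP channel gene, averaged over WT and KO; bars are 95% confidence intervals from limma and filled points passed the threshold. *Trpa1*, *Trpm8* and *Trpc6* lie below -1 at day 5, *Trpv2* is above 0 at day 2 and *Trpv4* at day 5.

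*Trpm3*, a heat channel of nociceptors, had a smaller difference. Its brightest probe, A_52_P242213, ranged from 6.91 to 7.71 in the 8 controls with a median of 7.31, from 6.69 to 7.58 at day 2 with a median of 6.93, and from 6.62 to 7.26 at day 5 with a median of 6.87. The groups overlapped at both days. *Trpm3* fell by 0.35 at day 2 (limma adjusted p = 0.03951, standard error 0.12) and by 0.44 at day 5 (standard error 0.12, adjusted p = 0.009189). The day 2 call did not hold in 10 of the 24 fits with 1 sample left out, where the difference was still negative. At day 2 it was -0.55 among samples with an array partner of the same time point and -0.16 among the others. Day 5 and day 2 differed by -0.09 (95% CI -0.34 to 0.16). The probe A_52_P97229 passed in the same direction, with -0.60 at day 2 (adjusted p = 0.02311) and -0.57 at day 5 (adjusted p = 0.03629), where 1 WT day 5 value was missing as an outlier spot and left out of the fit. The probe A_52_P484769 gave -0.28 and -0.26 (adjusted p = 0.2101 and 0.251). The probe A_52_P387069 was well above background in 5 of 24 samples and gave -0.09 and 0.03.

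The probes of *Trpc1*, a TRPC channel that joins other TRPC subunits, disagreed. The brightest, A_52_P547315, ranged from 7.67 to 8.31 in controls, from 7.45 to 8.01 at day 2 and from 7.52 to 7.81 at day 5, with overlap at both days. It fell by 0.33 at day 2 (limma adjusted p = 0.01338, standard error 0.09) and by 0.30 at day 5 (standard error 0.09, adjusted p = 0.01901). By array partner the day 2 difference was -0.45 with a partner of the same time point and -0.21 with another. The probe A_51_P196019, whose sequence is given above, showed 0.00 at day 2 (95% CI -0.22 to 0.22) and -0.09 at day 5 (95% CI -0.31 to 0.13). The probe A_52_P35561 showed -0.12 and -0.03 (adjusted p = 0.5788 and 0.9027). With the 3 probes averaged, *Trpc1* did not pass at either day (-0.15, adjusted p = 0.137, and -0.14, adjusted p = 0.157). The call for *Trpc1* thus rests on 1 probe of 3.

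**Figure D3:**
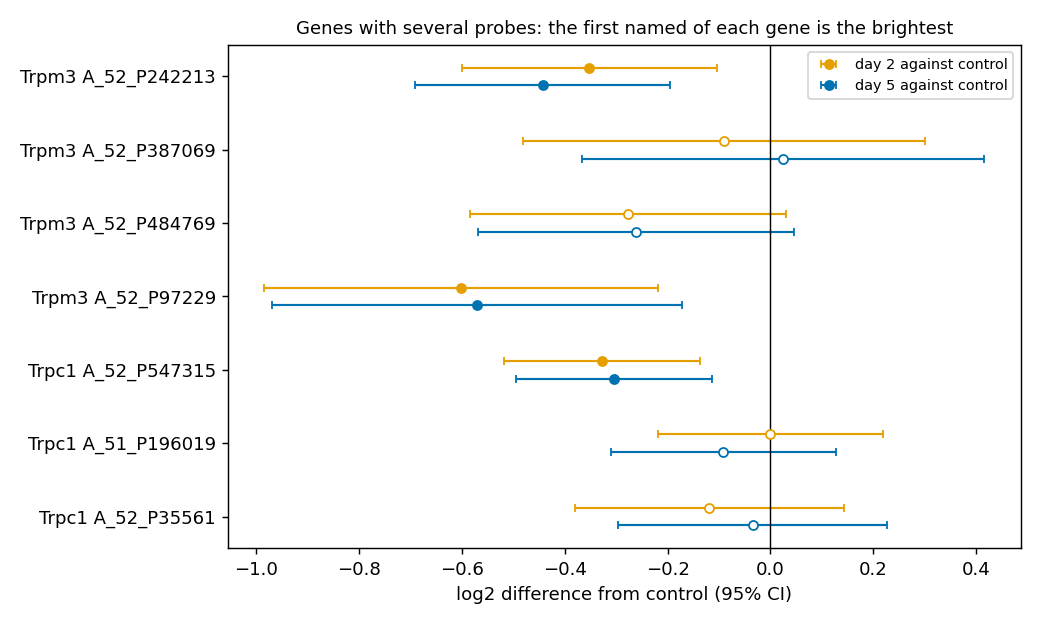
Log2 difference from control at day 2 (orange) and day 5 (blue) for each of the 4 *Trpm3* and 3 *Trpc1* probes, both genotypes averaged; bars are 95% confidence intervals from limma and filled points passed the threshold. The brightest probe passed at both days for each gene, as did 1 further *Trpm3* probe and neither further *Trpc1* probe.

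*Trpv2*, which is found in large sensory neurons and also in macrophages, was higher at day 2 and not at day 5. It read 10.7, 10.56, 10.54 and 10.59 in WT controls, 11, 10.82, 10.71 and 11.05 in WT at day 2, and 10.44, 10.43, 10.62 and 10.61 in WT at day 5. In KO mice it read 10.80, 10.41, 10.60 and 10.54 in controls, 10.93, 11.07, 11.19 and 10.92 at day 2, and 10.42, 10.56, 10.63 and 10.64 at day 5. All 4 day 2 samples were above all controls in each genotype, while pooled over genotypes WT day 2 replicate 3 was below KO control replicate 1. All 4 day 2 samples lay on one side of the 4 controls for 16.5% of gene names in WT and 14.3% in KO. *Trpv2* rose by 0.37 at day 2, to 129% of control (standard error 0.07, limma adjusted p = 0.0005883), and the difference was between 0.39 and 0.49 within the slides. At day 5 the difference was -0.05 (95% CI -0.19 to 0.10, adjusted p = 0.7186). Day 5 was lower than day 2 by -0.42 (95% CI -0.56 to -0.27, adjusted p = 0.001288). Day 2 samples read 10.71 to 10.93 with an array partner of the same day and 11 to 11.19 with another partner, and the day 2 difference was 0.28 and 0.46 in these kinds of array. With only the 12 samples whose array partner was of the same time point, an alternative chosen after seeing the data, the day 2 difference was 0.28 and did not pass (adjusted p = 0.125). In that fit *Trpv2* did not pass between day 5 and day 2 either.

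The summed intensity of 11 macrophage markers was 2300 to 4320 in controls, 3380 to 6690 at day 2 and 8500 to 12600 at day 5. All 11 passed as higher at day 5, led by the complement genes *C1qa* (2.05) and *C1qc* (2.01), beside 10.2% of all gene names. *Trpv2* was at its control level at the day when these markers were highest. The part of macrophages in the *Trpv2* values was not tested.

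*Trpv4*, a channel for osmotic and mechanical stimuli in neurons and other cells, was higher at day 5. It read 7.58, 7.29, 7.30 and 7.38 in WT controls, 7.51, 7.37, 7.58 and 7.28 in WT at day 2, and 7.79, 7.29, 7.67 and 7.84 in WT at day 5. The KO values were 7.23, 7.20, 7.45 and 7.30 in controls, 7.53, 7.47, 7.33 and 7.41 at day 2, and 7.47, 7.73, 7.86 and 7.60 at day 5. In KO all day 5 samples were above all controls, as for 20.2% of gene names on one side or the other, and in WT 1 day 5 sample lay at the lowest control. *Trpv4* rose by 0.31 at day 5 (limma adjusted p = 0.007722, standard error 0.08), and differed from control by 0.09 at day 2 (95% CI -0.08 to 0.27, adjusted p = 0.49). Day 5 and day 2 differed by 0.22 (95% CI 0.05 to 0.39, adjusted p = 0.1792). The day 5 difference was between 0.27 and 0.37 within the slides.

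*Trpc5*, a channel of TRPC family that is activated by Gq coupled receptors, was near background. Its signal cleared background well in 3 of 4 WT controls, 1 of 4 WT day 2 samples, 0 of 4 WT day 5 samples, 3 of 4 KO controls, 1 of 4 KO day 2 samples and 2 of 4 KO day 5 samples. Values ranged from 3.77 to 4.75 in controls, from 3.49 to 5.19 at day 2 and from 3.06 to 4.95 at day 5, and neither lesion difference passed (-0.11 and -0.35, limma adjusted p = 0.836 and 0.4251). Day 2 samples read 3.49 to 4.05 with an array partner of the same day and 4.05 to 5.19 with another partner. The day 2 difference was -0.54 and 0.33 in these kinds of array. Since no WT day 5 sample was well above background, the size of the WT change at day 5 is uncertain. The measured WT control signal was 1.67-fold the WT day 5 signal, a log2 difference of -0.74 at day 5. Its confidence interval, from -1.52 to 0.05, includes no change, and the test did not pass (limma adjusted p = 0.2527). No minimum size of the change can thus be given.

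Within each genotype, where 4 lesion samples face 4 controls, fewer channels passed. In WT mice 3 of 8 passed at day 2, *Trpa1*, *Trpm8* and *Trpc6*, where 11% of gene names did, and the same 3 passed at day 5, where 13.9% did. In KO mice 2 passed at day 2, *Trpv2* and *Trpm8*, against 11.8% of gene names, and 4 at day 5, *Trpv4*, *Trpa1*, *Trpm8* and *Trpc6*, against 12.7%. Without KO control replicate 4 the KO counts were 2 and 3, where *Trpv4* at day 5 gave 0.37 (adjusted p = 0.0821). *Trpm8* differed from control by -1.02 in WT and -1.0 in KO at day 2 and -1.22 in WT and -1.10 in KO at day 5. *Trpa1* at day 2 was -0.70 in WT (adjusted p = 0.03467) and -0.30 in KO (95% CI -0.73 to 0.13, adjusted p = 0.4176). The count in KO at day 2 was 4 without KO day 2 replicate 3. The count in WT at day 2 was 1 without WT control replicate 2, without WT control replicate 4 or without WT day 2 replicate 2. The count in KO at day 5 was 2 without KO control replicate 1, without KO day 5 replicate 2 or without KO day 5 replicate 4.

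Passing in one genotype and not in the other did not amount to a difference between them. No channel passed for KO against WT in controls, at day 2 or at day 5, where 0%, 0.0146% and 0.0109% of gene names passed, and none had an unadjusted p under 0.05 in limma (0 of 8 each time). The time by genotype interaction, the test of whether the lesion response differed, gave 0 of 8 channels, beside 0% of all gene names. That result is therefore not particular to the channels. Before adjustment, the lowest limma p among them was 0.351, for *Trpc5*, so 0 of 8 fell below 0.05. The change of *Trpa1* at day 2 was 0.40 larger in KO than in WT (95% CI -0.21 to 1.01), that is less of a decline, and that of *Trpc6* 0.53 larger (95% CI -0.36 to 1.43). For *Trpm8* it was 0.02 (95% CI -0.65 to 0.69). The intervals of KO minus WT leave room for differences in either direction. For *Trpv2* they ran from -0.22 to 0.20 in controls and from -0.17 to 0.25 at day 5, and for *Trpc6* from -0.74 to 0.53 in controls and from -0.50 to 0.76 at day 5. *Trpm3* in controls was 0.31 higher in KO (95% CI -0.04 to 0.66, adjusted p = 0.9999). Without KO control replicate 4 no channel passed in controls, and *Trpm3* was 0.39 higher in KO (95% CI 0.01 to 0.77, unadjusted p = 0.0445 in limma), 1 of 8 channels with an unadjusted p under 0.05.

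**Figure D4:**
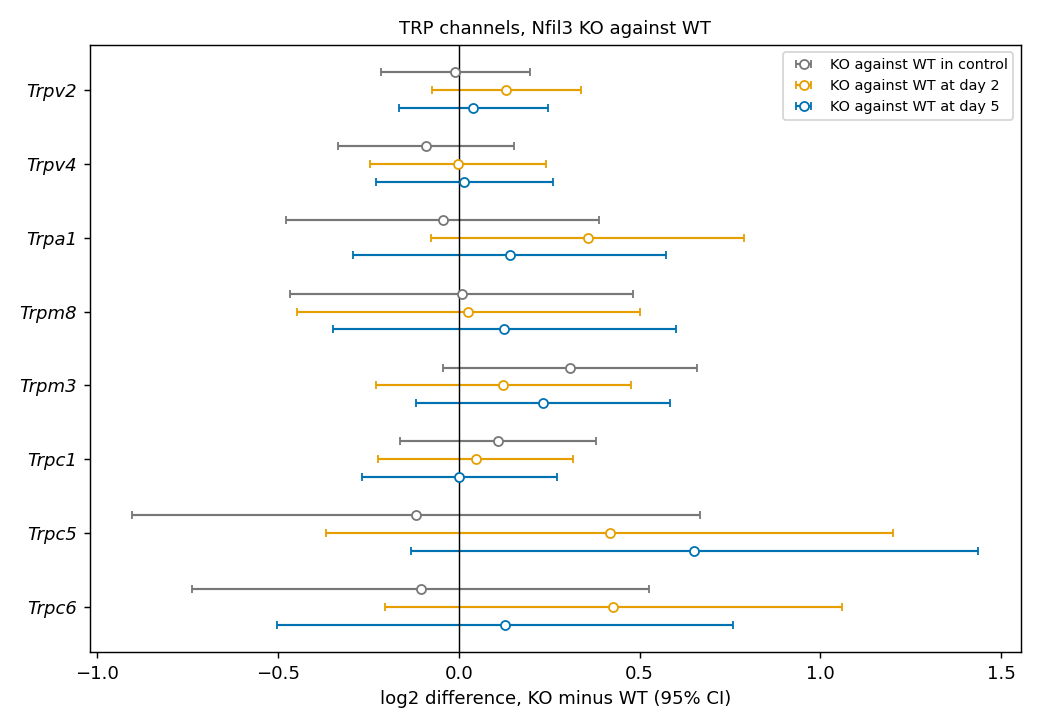
Log2 difference between KO and WT for the brightest probe of each TRP channel gene in controls (grey), at day 2 (orange) and at day 5 (blue), with 95% confidence intervals from limma. All points are open because none passed the threshold, and each interval includes 0.

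NFIL3 is a transcription repressor that binds the motif TTATGTAA or TTACGTAA and that can compete with CREB. The 250 bases before the transcription start were searched on both strands for these motifs and for the CREB motif TGACGTCA, its core TGACG (which is part of TGACGTCA) and the AP-1 motif TGANTCA, using RefSeq starts in build GRCm38.p6. Of the 9 genes 8 had an entry, with 11 windows in all, and *Trpa1* was not among them. TTATGTAA was in 0 of the 11 windows and in 0.819% of 32851 windows of all genes. TTACGTAA was in 0 and in 0.113%, TGACGTCA in 0 and in 1.55%, and TGANTCA in 0 and in 6.75%. The core TGACG was in 2 windows, those of *Trpc1* and *Trpc6*, and in 17.8% of all windows. A match of letters is a description and shows no binding. The windows of the 2 genes with a match and of *Trpm8*, which has none, are given 5′ to 3′ on the strand of the gene, with the core TGACG or its reverse complement in capitals.
*Trpc6*, chr9:8543892-8544141, plus strand: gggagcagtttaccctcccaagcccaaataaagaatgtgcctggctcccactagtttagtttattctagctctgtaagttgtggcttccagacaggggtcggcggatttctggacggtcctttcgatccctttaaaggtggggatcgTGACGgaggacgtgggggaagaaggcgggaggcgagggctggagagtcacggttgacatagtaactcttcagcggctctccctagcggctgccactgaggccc
*Trpc1*, chr9:95750349-95750598, minus strand: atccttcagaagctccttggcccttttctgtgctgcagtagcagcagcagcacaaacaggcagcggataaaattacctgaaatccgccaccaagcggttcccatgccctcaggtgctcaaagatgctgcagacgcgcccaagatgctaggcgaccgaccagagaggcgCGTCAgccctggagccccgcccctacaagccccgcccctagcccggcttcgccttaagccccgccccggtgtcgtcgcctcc
*Trpm8*, chr1:88306485-88306734, plus strand: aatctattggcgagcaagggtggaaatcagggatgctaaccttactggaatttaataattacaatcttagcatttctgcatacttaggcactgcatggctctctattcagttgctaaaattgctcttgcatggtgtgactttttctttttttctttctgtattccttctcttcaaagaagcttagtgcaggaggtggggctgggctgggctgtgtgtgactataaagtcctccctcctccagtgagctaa
*Trpc6* and *Trpc1* were both lower post-lesion on their brightest probes, and so was *Trpm8*, without the core.

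Of the other TRP family genes all 19 were on the array, and 1 passed as higher and 4 as lower at day 5, with a median of -0.14. These are 26.3% of the 19, near the 23.2% of all gene names that passed at day 5. *Mcoln2*, a lysosomal channel of immune cells, rose by 2.27 at day 5 (limma adjusted p = 5.32e-06, standard error 0.28) and by 2.34 at day 2, with 4 of 8 controls well above background. *Trpm2* fell by 0.96, *Trpc4* by 0.86 and *Trpm4* by 0.35 at day 5. *Trpm2* and *Trpc4* also passed as lower at day 2, and *Trpm4* did not (limma adjusted p = 0.22).

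TRP channels are sensitized by receptors for inflammatory mediators and growth factors, which act through Gq, phospholipase C and kinases. Of 17 such receptors on the array, 1 passed as higher and 9 as lower at day 5, with a median of -0.37. That is 5.88% and 52.9%, beside 10.2% and 13% of all gene names. *P2ry1*, a purinergic receptor, fell by 1.29, and *Mrgpra3*, an itch receptor, by 0.96, while *Gfra3*, the artemin receptor, rose by 0.99. Of 17 G proteins, lipases and enzymes of PIP2 turnover, 2 were higher (11.8%) and 7 lower (41.2%), with a median of -0.25. The phospholipase *Plcd4* fell by 1.40 and the diacylglycerol kinase *Dgkh* by 1.24, while *Pip5k1b* rose by 0.50 and *Plcb2* by 0.63. The *Plcb2* probe was well above background in 1 of 8 controls and 7 of 8 day 5 samples, so the size of its difference rests on control values near background. Of 25 kinases, phosphatases and partner proteins, 2 were higher (8%) and 16 lower (64%), with a median of -0.44. *Camk2a* fell by 0.92 and *Prkce*, a protein kinase that sensitizes TRPV1, by 0.82, while *S100a10*, which carries TRP channels to the membrane, rose by 0.82 and *Gabarap* by 0.32.

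**Figure D5:**
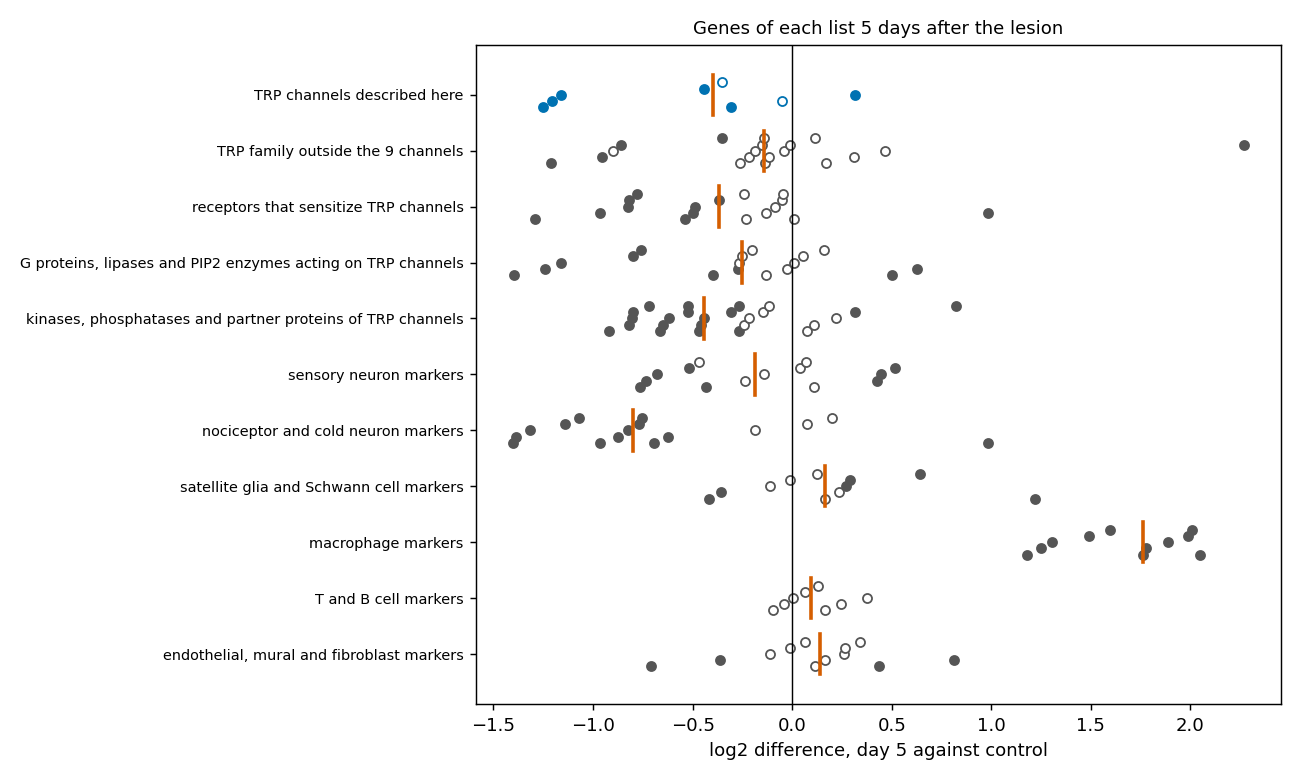
Log2 difference from control at day 5, both genotypes averaged, for each gene of the lists (brightest probe; filled points passed the limma threshold, orange lines are list medians). The TRP channels described here have a median of -0.40, the nociceptor and cold neuron markers one of -0.80 and the macrophage markers one of 1.76.

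Marker genes of the neurons that carry these channels moved as well. Of 16 nociceptor and cold neuron markers on the array, 12 passed as lower (75%) and 1 as higher (6.25%) at day 5, with a median of -0.80. Of all gene names 13% passed as lower and 10.2% as higher at day 5. The sodium channel *Scn11a* fell by 1.40 and *Th* by 1.38, and *Gfra3*, which is also in this list, rose by 0.99. Their summed intensity was 129000 to 159000 in controls and 76900 to 108000 at day 5, without overlap. *Calca*, the CGRP precursor, made up 81% of that sum in controls, and without it the sum was 24300 to 28100 in controls, 17000 to 29100 at day 2 and 17700 to 20400 at day 5. The 14 general sensory neuron markers gave 3 higher (21.4%) and 5 lower (35.7%). Their summed intensity of 340000 to 394000 in controls overlapped with 349000 to 427000 at day 5. In that list *Stmn2* rose by 0.52 and *Elavl3* by 0.44, while *Snap25* fell by 0.76 and *Rbfox3* by 0.73. Of 11 satellite glia and Schwann cell markers 4 were higher (36.4%) and 2 lower (18.2%). Among them were *Gfap* at 1.22 (2 of 8 controls well above background), *Glul* at 0.64, *S100b* at -0.42 and *Fabp7* at -0.36. Of 8 T and B cell markers 0 passed at day 5 in limma, 1 with an unadjusted p under 0.05. Of 12 endothelial, mural and fibroblast markers 2 were higher (16.7%), *Lum* by 0.81 and *Acta2* by 0.44. Another 2 were lower (16.7%), *Rgs5* at -0.71 and *Pdgfrb* at -0.36. These are 33.3% of the 12, beside 23.2% of all gene names. The part of these cell type markers in the TRP channel values was not tested.

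The genes whose values ran most like those of a channel are given as a description over the 24 samples, which share the lesion as a source of variation. For *Trpm8* they were *Plcd4* (Pearson r = 0.971), *Acaa2* (0.970) and *Ift122* (0.966). For *Trpc6* they were *5330417C22Rik* (0.977), *Kntc1* (0.976) and *Ldb2* (0.972), and for *Trpa1* *6330403K07Rik* (0.951), *Efcab10* (0.937) and *Car8* (0.934). *Slc45a4* and *Tomm70a* were among the leading 3 for both *Trpm3* (0.937 and 0.915) and *Trpc1* (0.918 and 0.931). The other was *Glrb* for *Trpc1* (0.922) and a transcript named by its accession for *Trpm3* (0.911). For *Trpv2* they were *Frat2* (0.896), *Nptx2* (0.887) and *Nbea* (0.884), and for *Trpv4* *Vrk3* (0.793), an unnamed probe, A_51_P350172 (0.791), and *Rgs12* (0.776).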

How the data were processed

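The authors hybridized 24 samples to 12 two-color Agilent 4x44K arrays on 3 slides and deposited scanner output, foreground and background intensity per spot and channel, not normalized. Samples were grouped by title. As in the study's methods, background was corrected by the Edwards method (mean foreground, median background) and the 24 channels were quantile normalized on the log2 scale. Control spots were left out and outlier spots set to missing (417 probe values), and spots of a probe were averaged. The deposited processed signals were used as an alternative only. In R 4.3.3 with limma 3.58.1, a linear model (lmFit, then eBayes) gave each group its own mean over all samples, with Benjamini-Hochberg adjustment across 41174 probes. This model treated the 2 samples of an array as independent, while the consensus correlation within arrays was 0.27. Genes were taken by their brightest probe. The named genes were the 9 channels, the 2 highest and 2 lowest passing day 5 differences per list, and the 3 most correlated genes per channel. *Trpc4* and *Trpm4* were named after their values were seen. A gene that this rule names is not reported here, though list counts and medians include it. The channels and the lists were chosen with earlier results of these data known. Figures used matplotlib. The script was tested on simulated data. Alternatives changed background correction, foreground, normalization, filter, outlier spots, probe choice, covariates, blocks and samples. The number of arrays limits precision. Replicates differed from each other (highest correlation 0.9777, 0 identical pairs).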

Additional observations from a re-analysis of the deposited data

Results flagged for a closer look

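Of the 48 groups of 4 samples that the 8 channels give, 2 held a sample far from the others by Dixon's test, which flags about 1 in 20 groups by chance. *Trpm8* was 6.91 in KO control replicate 3 and 6.67 to 6.70 in the other KO controls. *Trpc1* was 7.52 in KO day 5 replicate 2 and 7.78 to 7.80 in the other KO day 5 samples.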

How the results depend on the processing

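There were 39 alternatives, 15 in the processing, model or set of samples and 24 with 1 sample left out. None turned the direction of a channel that passed (the values within single slides stand in the report). With only the 12 samples whose array partner was of the same time point, chosen after seeing the data, 3 channels passed at day 5, 0 between day 5 and day 2, and 0 at day 5 in KO, and this fit has fewer samples. In it *Trpm3* gave -0.55 at day 2 (adjusted p = 0.0531 in limma) and -0.39 at day 5 (adjusted p = 0.167), *Trpv4* 0.32 at day 5 (adjusted p = 0.206) and *Trpc1* -0.27 at day 5 (adjusted p = 0.201). With 1 sample left out, the number of channels that passed ranged from 1 to 4 at day 2 in WT, from 2 to 4 at day 2 in KO and from 2 to 5 at day 5 in KO, and *Trpm3* at day 2 from -0.44 to -0.29 (adjusted p up to 0.0932). Same-numbered replicates did not all deviate together (60 pairs, correlations from -0.586 to 0.594 with a mean of 0.05, 27 over 0.1). The replicate number as a block gave 6 channels at day 2 and 6 at day 5, as without it. Signal near background limits *Trpc5* and the dimmest *Trpm3* probe.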
